A study of Mus musculus with 4 samples.

Results

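The Egr and Nr4a genes are a set of 7 inducible transcription factors, and their transcripts were measured in the cortex of 2 APPswe/PS1ΔE9 mice (APP) and 2 wild type mice (WT). The members were the counted transcripts whose gene symbol was Egr1, Egr2, Egr3, Egr4, Nr4a1, Nr4a2 or Nr4a3. All 7 genes were found, in 8 transcripts, among 22919 features that were tested, of which 14645 were genes with a symbol and the others single transcripts without one. The deposited symbols mixed upper and lower case, so 3 of the 7 were spelled as listed here and the rest were matched without regard to case. By transcript identifier, all 8 transcripts belonged to the same genes in GENCODE M21 (GRCm38).

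The APP group carried the double transgene on a C57BL/6 background and the WT group were C57BL/6J mice without it. In this line the mouse prion promoter drives a human mutant amyloid precursor protein and a human presenilin 1 that lacks an exon. All the mice were male, 12 months old and housed singly, and were killed under pentobarbital anesthesia before dissection of the cortex. Strand-specific sequencing was done on total RNA without its ribosomal part, and the libraries are named here APP.3, APP.4, WT.1 and WT.2. The WT libraries could be matched to their numbered mice and the APP libraries only to their group.

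Egr proteins are zinc finger factors that bind GC-rich promoter elements, and Nr4a proteins are orphan nuclear receptors whose activity is set largely by how much of them is made. Both families are immediate-early genes: synaptic activity, calcium entry and ERK signaling switch them on within minutes through the factors SRF and CREB, with no new protein needed. In the cortex they are known as markers of recent neuronal activity and as factors of memory consolidation. Their level in a piece of tissue therefore also depends on what the animal experienced shortly before death, and the time between handling and dissection is not given in the sources used here.

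The libraries held between 28525117 and 43881196 counts. Since molecular identifiers were not used, counting intervals take in counting error alone. App and Prnp, on which reads of the transgenes can be counted, were higher in APP as labelled, with log2 fold changes of 1.53 and 1.72 (adjusted p = 1.89e-06 and 9.01e-07, edgeR's quasi-likelihood test as for all adjusted p-values here). Of the cortical markers chosen, 9 of 10 for excitatory neurons and 8 of 9 for interneurons were among the counted genes. Permuting 2 against 2 libraries exactly gives a two-sided p of 0.333 at the lowest, and the p-values printed here therefore draw on the variability that edgeR pools over the features.

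All 7 factors had a fitted level below WT in APP, as did 49.2% of all features, by between 8.18% for Nr4a2 and 32.1% for Egr2, although Nr4a2 and Nr4a3 changed sign when scaled to excitatory neuron markers. For 4 of them, Egr1, Egr2, Egr3 and Nr4a1, both APP libraries were below both WT libraries, a pattern shown by 20.0% of all features. Egr1 was the member that passed the FDR cut-off of 0.05, as did 0.188% of all features in this direction and 1.34% in either. No member passed the FDR cut-off together with the study's fold change cut-off of 1.5, which 0.999% of features did, 0.0785% with a lower and 0.921% with a higher level in APP. At an unadjusted p under 0.05 there were 4 members by edgeR's quasi-likelihood, exact and likelihood ratio tests and 2 by DESeq2, against 4.28% of all features in this direction by the first test, 7.03% in the other and 11.3% in either.

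**Figure D1:**
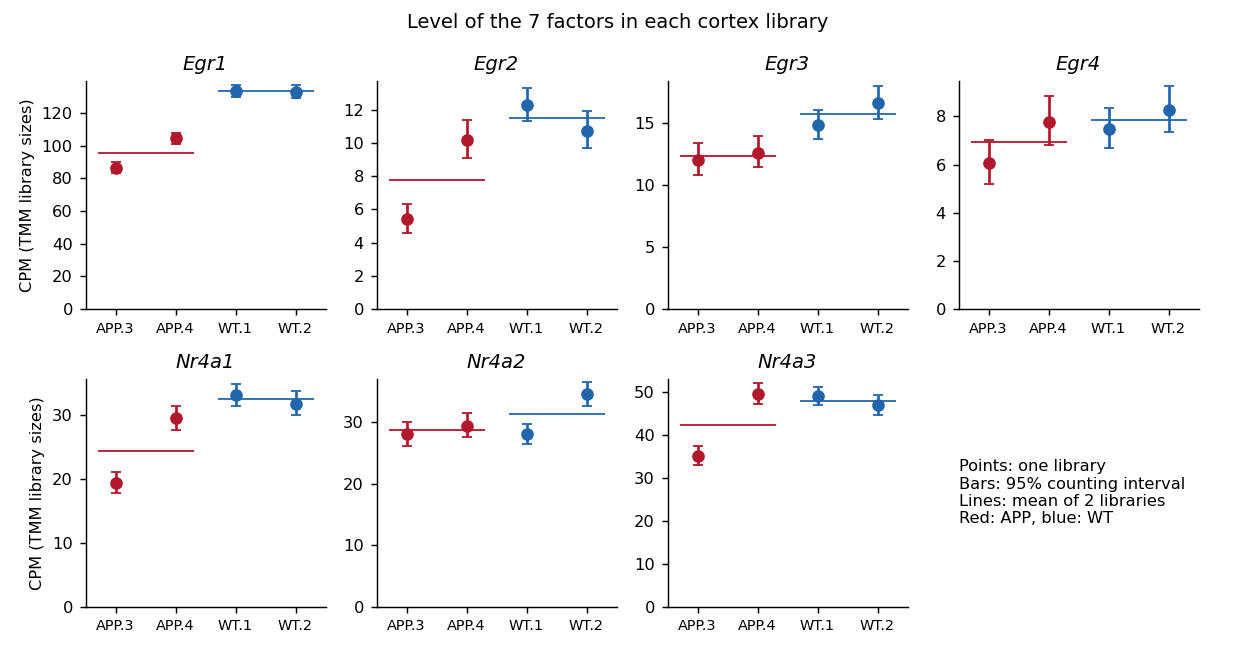
Level of each factor in the 4 libraries, in CPM (counts per 1000000 of the TMM library size), with 95% counting intervals and the mean of each group. For Egr1 the APP libraries reach 86.6 and 104.5 CPM and lie below both WT libraries at 133.0 or more, while for Nr4a3 APP.4 lies at 49.6 CPM, above both WT libraries.

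Egr1, also known as Zif268, is the most widely used activity marker of the family and is needed for long-lasting synaptic plasticity. It lies on the plus strand of chromosome 18 of GRCm38, from 34859823 to 34864984, and was counted as 1 transcript of 2 exons. The APP libraries had 86.6 CPM (APP.3) and 104.5 CPM (APP.4), and the WT libraries 133.6 CPM (WT.1) and 133.0 CPM (WT.2). The groups did not overlap, and the WT libraries were closer to each other than the APP libraries were. Its fitted log2 fold change was -0.48 with a standard error of 0.09 (95% interval -0.67 to -0.29; adjusted p = 0.0257 from edgeR), a level 28.3% lower in APP. Its share of the summed Egr CPM lay between 77.4% and 79.4% in the 4 libraries.

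The adjusted p of Egr1 passed 0.05 without APP.3 (2.16e-05) and without APP.4 (1.69e-12), but not without WT.1 (0.292) or WT.2 (0.215), edgeR fits in which the lone library is assumed to vary like the other group. Without APP.4 the log2 fold change of -0.62 also passed the fold change cut-off.

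Egr3 is also an immediate-early factor of the family, and its counted transcript of 3 exons lies on the plus strand of chromosome 14, from 70077203 to 70079955. The libraries APP.3 and APP.4 held 12.0 and 12.6 CPM, and WT.1 and WT.2 held 14.9 and 16.6 CPM. Here the APP libraries were almost equal and both were below WT, at 23.5% and 20.0% under the WT mean. A log2 fold change of -0.35, whose standard error was 0.11 and 95% interval -0.59 to -0.12, had an adjusted p of 0.191 by edgeR's quasi-likelihood test.

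Egr2, or Krox20, is known for its part in myelination by Schwann cells and hindbrain patterning besides its induction in neurons. Its transcript lies on the plus strand of chromosome 10, from 67537869 to 67542188. APP.3 held 157 counts of it (5.43 CPM), APP.4 315 (10.2 CPM), WT.1 540 (12.3 CPM) and WT.2 381 (10.7 CPM). APP.3 was far below the other libraries, and the counting interval of APP.4 (9.08 to 11.4 CPM) overlapped that of WT.2 (9.69 to 11.9 CPM). Of the 7 it had the largest log2 fold change, -0.56, and the largest standard error, 0.22 (95% interval -1.05 to -0.07, adjusted p = 0.357 by edgeR). Leaving out APP.3 gave -0.19, and leaving out APP.4 gave -1.09, where it passed both cut-offs (edgeR, adjusted p = 3.02e-07).

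Egr4, the member with the lowest mean CPM in either group, is a neuronal Egr factor on the minus strand of chromosome 6, from 85511121 to 85513589. APP.3 had 6.05 CPM and APP.4 7.78 CPM, with 7.47 CPM for WT.1 and 8.26 CPM for WT.2. The groups overlapped, as APP.4 lay between the WT libraries. The log2 fold change of -0.18 (95% interval -0.51 to 0.15, adjusted p = 0.727 by edgeR) was -0.02 without APP.3.

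Nr4a1, or Nur77, is the most rapidly induced receptor of its family and is also made by activated lymphocytes and macrophages. On the plus strand of chromosome 15, from 101266846 to 101274795, it was counted as 1 transcript of 7 exons. APP.3 had 19.5 CPM and APP.4 29.5 CPM, below WT.1 with 33.2 CPM and WT.2 with 31.8 CPM. The groups did not overlap, but APP.4 was 9.15% below the WT mean and APP.3 40.2% below it. Fitted over all libraries, the log2 difference was -0.41 (SE 0.15, 95% interval -0.75 to -0.07, adjusted p = 0.321 by edgeR). Without APP.3 it was -0.14, and without APP.4 it was -0.74 and passed both cut-offs (edgeR, adjusted p = 9.91e-09).

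Nr4a3, or Nor1, had the highest CPM of the receptors, from a transcript on the plus strand of chromosome 4, from 48045153 to 48086445. APP.3 held 35.2 CPM, whereas APP.4 held 49.6, WT.1 49.0 and WT.2 46.8. APP.3 was 26.6% below the WT mean and APP.4 was the highest of the 4 libraries. Its log2 fold change of -0.18 (95% interval -0.47 to 0.11, adjusted p = 0.688 by edgeR) became 0.04 without APP.3 and -0.45 without APP.4, the latter with an adjusted p of 6.49e-05 by edgeR and below the fold change cut-off.

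Nr4a2, or Nurr1, is a factor of midbrain dopamine neurons that in the cortical mantle also marks claustrum and deep-layer neurons. It lies on the minus strand of chromosome 2, from 57106830 to 57115038, and was counted as a protein-coding transcript and a short processed transcript, which had 6 to 10 counts in each library. Summed, they had 28.0 CPM (APP.3) and 29.4 CPM (APP.4) against 28.1 CPM (WT.1) and 34.5 CPM (WT.2). Only WT.2 stood above the rest, and the spread between the WT libraries was wider than that between the APP libraries. A log2 fold change of -0.12 (95% interval -0.36 to 0.11) had an adjusted p of 0.743 by edgeR's quasi-likelihood test and was 0.03 without WT.2. Of the 8 counted markers of claustrum and layer 6b, 7 had a higher fitted level in APP, as did 11632 of the 22919 features. Their median log2 fold change was 0.21, and 0 passed the FDR cut-off or an unadjusted p of 0.05 by edgeR's quasi-likelihood test. Their sums, 225.3 and 214.9 CPM in APP and 220.6 and 230.0 in WT, consist mostly of Synpr, named after its values were seen, which had 140.0 and 129.9 CPM in APP and 146.0 and 148.6 in WT.

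**Figure D2:**
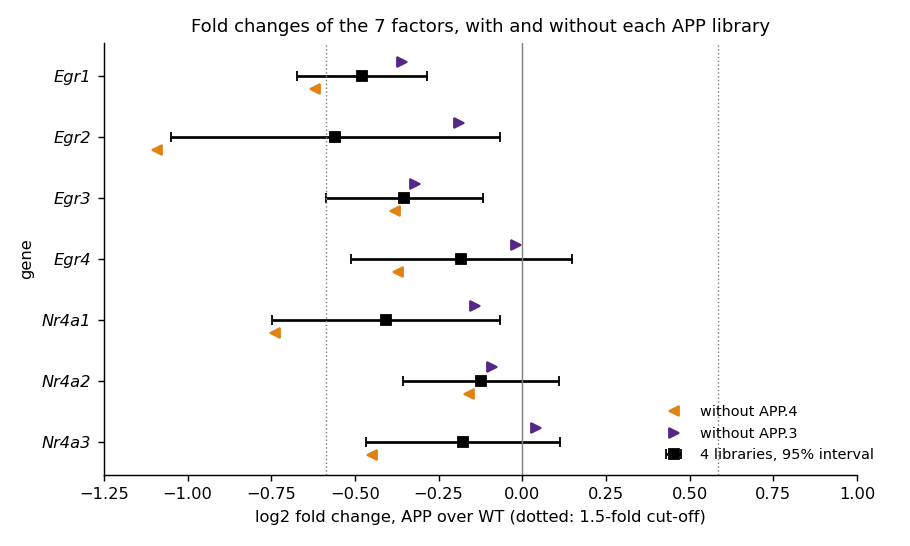
Log2 fold change of APP over WT for each factor, with squares and 95% intervals from the 4 libraries and triangles for the fits without APP.4 or without APP.3. The triangles lie close together for Egr3 (-0.38 and -0.32) and Nr4a2 (-0.16 and -0.09), and far apart for Egr2 (-1.09 and -0.19) and Nr4a1 (-0.74 and -0.14).

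The members thus differed in how their APP libraries were placed. APP.3 had the lowest level of the 4 libraries for all 7 factors, against 26.9% of all features. The log2 difference of APP.3 from APP.4 was -0.90 for Egr2, -0.60 for Nr4a1, -0.49 for Nr4a3, -0.36 for Egr4 and -0.27 for Egr1, but -0.07 for both Egr3 and Nr4a2. Between WT.1 and WT.2 the corresponding differences ran from -0.30 for Nr4a2 to 0.19 for Egr2. Summed over the 4 Egr genes the level came to 65.4% (APP.3) and 80.2% (APP.4) of the WT mean, and over the 3 Nr4a genes 74.0% and 97.1%.

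APP.3 also had low counts of striatal genes, and the Egr and Nr4a factors are known to be made in striatal neurons as well as in the cortex. The 10 counted striatal markers summed to 292.3 CPM for APP.3 and 610.0 CPM for APP.4, with WT.1 at 400.9 and WT.2 at 462.7 CPM. Of the 10, 9 were lowest in APP.3, against 26.9% of all features. None of these markers lacked counts altogether. The order of the striatal sums did not follow the groups, and their part in the levels of the 7 factors was not tested.

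The number of neurons in a sample also bears on neuronal transcripts. The 9 counted markers of excitatory neurons were all lower in APP, as were 49.2% of all features. Their median log2 fold change was -0.16, with summed levels of 1355 and 1349 CPM in APP against 1527 and 1476 in WT. By edgeR's quasi-likelihood test 0 of them passed the FDR cut-off. At an unadjusted p under 0.05 there were 3, against 4.28% of all features in this direction. Of the 8 counted interneuron markers, 6 were lower and 2 higher in APP. They summed to 622.5 and 732.5 CPM in APP against 736.7 and 699.1 in WT. Of these Pvalb, named after its values were seen, passed the FDR cut-off (log2 fold change -0.53, adjusted p = 0.0458 by edgeR). The 12 microglial markers were all higher in APP, as were 11632 of the 22919 features. Of the 12, 8 passed both cut-offs, against 0.921% of features in this direction. Their summed levels were 459.4 and 562.0 CPM in APP against 280.6 and 278.6 in WT. The 10 oligodendrocyte markers were also all higher, with 1754 and 1515 CPM against 1117 and 1256. The part of glial markers in the levels of the 7 factors was not tested. In bulk tissue, fewer cells of a type and less RNA per cell cannot be told apart. Scaled to the excitatory neuron markers, a setting chosen after seeing the data that moves the median of 19316 genes up by 0.18, the log2 fold change of Egr1 was -0.30 and no longer passed (adjusted p = 0.311 by edgeR). In that setting Nr4a2 and Nr4a3 had log2 fold changes of 0.05 and 0.01, and Egr2 and Egr3 had -0.37 and -0.18.

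Levels of different genes were compared per kilobase of the counted transcript. In WT the order was Egr1 with 29.7 CPM per kb, Nr4a1 with 13.1, Egr3 with 10.4, Nr4a2 with 8.77, Nr4a3 with 8.38, Egr2 with 3.88 and Egr4 with 3.66. The WT libraries of Nr4a2 (7.87 and 9.67 CPM per kb) enclosed those of Nr4a3 (8.57 and 8.19), and those of Egr2 (4.14 and 3.62) overlapped those of Egr4 (3.48 and 3.84), so neither pair could be ordered beyond the spread. In APP.3 the 3 genes Nr4a1, Egr3 and Nr4a2 stood at nearly the same level, 7.86, 7.97 and 7.85 CPM per kb, and Egr2 was below Egr4, with 1.83 against 2.82.

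**Figure D3:**
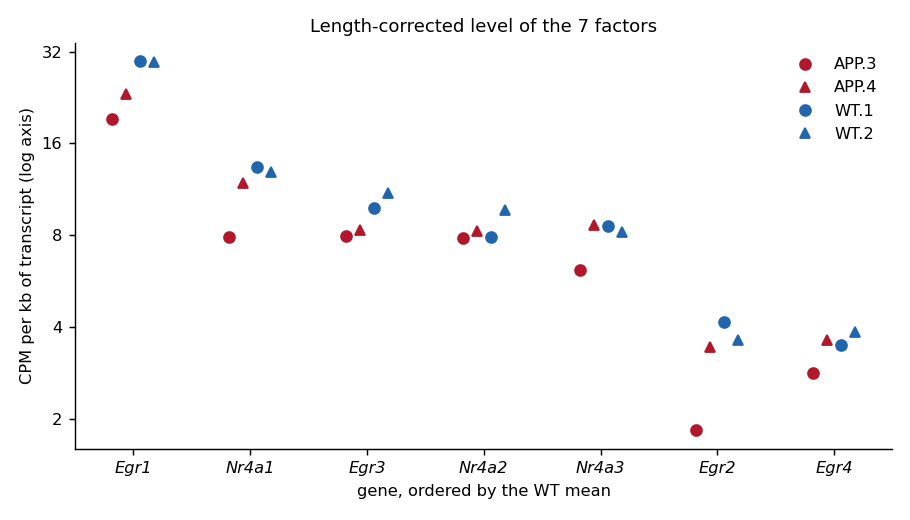
CPM per kilobase of the counted transcript on a log axis, for the 7 factors ordered by their WT mean, with 1 point per library. Egr1 lies highest, at 19.3 to 29.8 CPM per kb, and Egr2 and Egr4 lowest, at 1.83 to 4.14.

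The promoters were read because the factors share upstream regulators. RefSeq promoter windows of GRCm38.p6 were given for 5 members, and for Egr2, Egr4 and Nr4a1 the window starts from the first base of the counted transcript. The 250 bases before the start were searched on both strands. The cyclic AMP response element bound by CREB was sought either whole (TGACGTCA) or as its core TGACG. The CArG box bound by SRF was sought as CCWWWWWWGG, with W for A or T. Only these exact forms were searched, so near matches were not counted. A whole element contains the core. The core was found in at least 1 window of all 5 members with a window. Over all genes it was found in 19.8% of 27025 genes, or 17.8% of their 32851 windows. The whole element was found in 0 of the 5 members and in 1.77% of genes (1.55% of windows). The CArG box was found in Egr2 and in 1.62% of genes (1.47% of windows). The stretches below hold these matches, 5′ to 3′ on the gene's strand, with the cores and the CArG box in capitals.
Egr2, chr10:67537739-67537838, plus strand, from -130 to -31: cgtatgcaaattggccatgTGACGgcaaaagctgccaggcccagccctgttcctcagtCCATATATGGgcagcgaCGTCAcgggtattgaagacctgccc
Egr4, chr6:85513680-85513779, minus strand, from -190 to -91: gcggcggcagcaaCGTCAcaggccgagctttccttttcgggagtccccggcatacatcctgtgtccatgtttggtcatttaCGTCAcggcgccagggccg
Nr4a1, chr15:101266606-101266815, plus strand, from -240 to -31: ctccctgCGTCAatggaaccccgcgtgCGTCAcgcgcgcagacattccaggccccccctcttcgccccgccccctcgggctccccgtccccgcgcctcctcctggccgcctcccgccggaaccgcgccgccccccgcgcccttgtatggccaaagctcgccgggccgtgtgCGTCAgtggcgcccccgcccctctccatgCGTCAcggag

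In the Egr2 stretch the CArG box lies between 2 cores. The Egr4 stretch holds 2 cores and the Nr4a1 stretch 4. The Nr4a2 and Nr4a3 windows, which belong to other starts than those of the counted transcripts, each held 4. An Egr site of the form GCGGGGGCG was found in the Nr4a1 window and in 2.57% of all windows. These matches are descriptions of sequence, and Egr1 and Egr3 were not among the windows.

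The factors that switch the family on were next examined from lists of genes. SRF, which drives Egr genes through the CArG box, had a log2 fold change of -0.22 in its gene Srf (adjusted p = 0.413), and Creb1, the gene of CREB, had one of -0.00 (adjusted p = 0.997), both by edgeR's quasi-likelihood test. The kinase gene Mapk3 had a log2 fold change of 0.10 (adjusted p = 0.785, edgeR). Of the 19 counted upstream transcription factors and coactivators, 0 passed the FDR cut-off, with 3 at an unadjusted p under 0.05, and their median log2 fold change was -0.002. Of the 32 counted upstream receptors, channels and kinases, 0 passed it, with 6 at an unadjusted p under 0.05, against 11.3% of all features in either direction, and the median was -0.05. Over all features tested the median was 0.004.

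Nab1 and Nab2 are corepressors that bind Egr proteins, and Nab2 is itself induced by them. Nab2 had 19.7 and 22.3 CPM in APP and 24.3 CPM in each WT library, a log2 difference of -0.21 (adjusted p = 0.449 by edgeR). Nab1 had 40.1 and 43.7 CPM in APP, against 39.3 and 41.5 in WT. The retinoid X receptor Rxrb, a partner of Nr4a1 and Nr4a2, had between 17.4 and 17.9 CPM in all 4 libraries, (Rxra was not analysed here), and Rxrg had between 3.21 CPM in APP.3 and 7.75 in APP.4.

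Among 12 listed genes known as targets of Egr factors, 10 had a lower fitted level in APP, as did 49.2% of all features. Arc, whose product moves glutamate receptors away from the synapse, passed both cut-offs. The median log2 fold change of the list was -0.19. Of 7 listed targets of Nr4a factors, 0 passed the FDR cut-off by edgeR's quasi-likelihood test, with 5 at an unadjusted p under 0.05 (11.3% of all features), of which 3 were higher and 2 lower in APP. Their median log2 fold change was 0.75, with 5 of the 7 fitted higher. Summed, however, they were lower in APP, with 81.4 CPM (APP.3) and 71.0 CPM (APP.4) against 87.9 (WT.1) and 98.6 (WT.2). The 2 fitted lower, named after their values were seen, were Bdnf (-0.41) and Vip (-0.32). Vip had 32.28 and 29.57 CPM in APP against 39.85 and 37.54 in WT. Bdnf is also among the listed Egr targets and delayed genes. Among the 7, 2 were called higher in APP by the exact test of edgeR and also by its likelihood ratio test.

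Other rapid immediate-early genes were counted beside the 7 factors. Of 29 that were counted from a list of 32, 22 had a lower fitted level in APP, as did 49.2% of all features. In 17 of them both APP libraries were below both WT libraries, against 20.0% of all features. The median log2 fold change of the list was -0.33. The factors' own median was -0.35. Arc, the neuronal factor Npas4 and the ERK phosphatase Dusp1 passed both cut-offs, and 0 genes of the list passed with a higher level in APP. By edgeR's quasi-likelihood test, 13 were lower and 2 higher at an unadjusted p under 0.05 (4.28% and 7.03% of all features). The largest log2 fold changes of the list were increases, 1.14 for Atf3 and 1.10 for Zfp36, named after their values were seen. Neither passed the FDR cut-off. The APP libraries held 100.8 and 146.7 CPM of Arc and the WT libraries 212.8 and 225.3, with a fitted log2 difference of -0.82 (adjusted p = 0.0145 by edgeR). Npas4 had 4.91 and 8.13 CPM in APP against 12.2 and 12.4 in WT, and its fitted log2 difference was -0.91 (adjusted p = 0.0474 by edgeR). Dusp1 had 9.95 and 10.6 CPM in APP against 14.9 and 16.1 in WT. None of the 3 passed both cut-offs without WT.1, without WT.2 or when scaled to excitatory neuron markers. Arc also missed them by DESeq2 (adjusted p = 0.0904). Npas4 missed them by edgeR's earlier quasi-likelihood test, with the filter of 10 counts in every library and with sums by identifier (adjusted p = 0.0604, 0.0679 and 0.0739). Without APP.3, Arc and Dusp1 stayed under the fold change cut-off, with log2 fold changes of -0.58 and -0.55, as did Dusp1 when scaled to Gapdh and Actb (-0.55).

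The delayed activity genes, which encode effectors of synapses and signaling rather than transcription factors, were counted as well. Of the 34 counted, 29 had a lower fitted level in APP (49.2% of all features), with a median log2 fold change of -0.20. The FDR cut-off was passed by Homer1, Ptgs2, Rgs4, Dusp6 and Dusp14, named after their values were seen, all lower in APP with log2 fold changes between -0.56 and -0.38, and 0 passed the fold change cut-off as well (edgeR, with 17 lower and 1 higher at an unadjusted p under 0.05). Relative to the WT mean, the 7 factors had a median log2 difference of -0.44 for APP.3 and -0.14 for APP.4, that of the other rapid genes -0.30 and -0.18, and that of the delayed genes -0.18 and -0.28. The median of the delayed genes was thus lower in APP.4, and that of the 7 factors in APP.3.

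**Figure D4:**
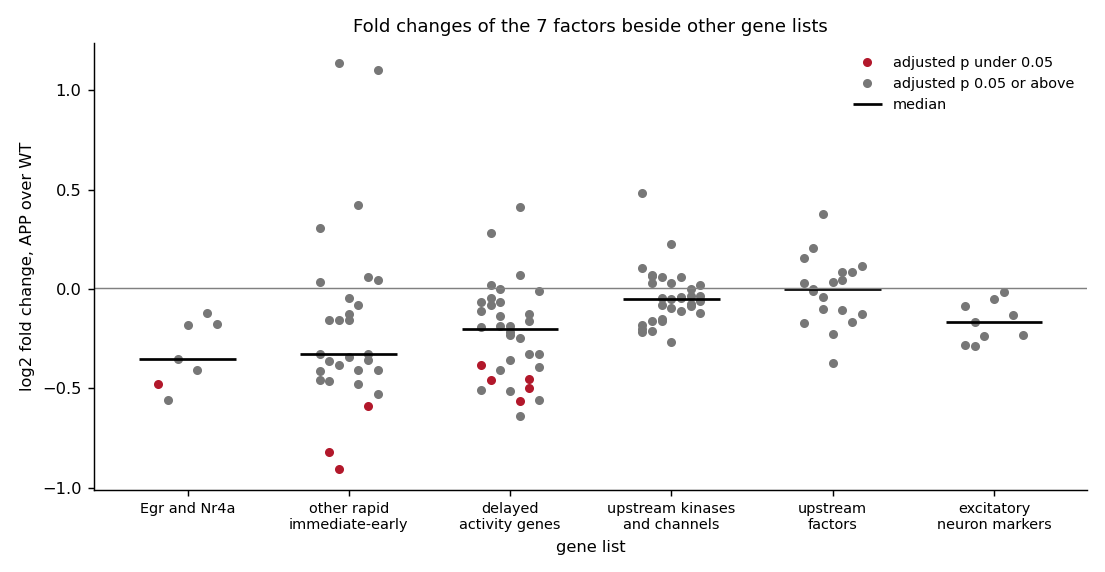
Log2 fold change of APP over WT for each counted gene of 6 lists, with the median of each list as a bar and that of all features as the grey line. The 7 factors (median -0.35) and the other rapid genes (median -0.33) lie lower than the upstream kinases and channels (median -0.05) and upstream factors (median -0.002).

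The genes whose pattern over the 4 libraries was most like that of a member were sought among 17630 other features with at least 100 counts, by the Euclidean distance of centred log2 CPM. For Egr1 these were Arpp21, Cobl, Midn, Trip10 and an unnamed transcript of Shank3, at distances of 0.027 to 0.065. The nearest to Nr4a1 were Ccnb1 and unnamed transcripts of Arpp21, Unc79, Pign and Htr7, at 0.066 to 0.088. For Egr2, added after its values were seen, the nearest was Fos, at a distance of 0.050, with 15.5 CPM in APP.3 and 28.0 in APP.4 against 33.3 and 29.4 in WT. The number of features within a distance of 0.2 was 135 for Egr1, 53 for Nr4a1 and 20 for Egr2, and 1746 for Nr4a2, which had the smallest fold change of the 7. Patterns over 4 libraries that share depth and tissue are a description and carry no test.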

How the data were processed

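Whole transcriptome libraries of 2 APP and 2 WT cortices were used. Per the labels and methods, the authors removed reads of ribosomal RNA, mapped the remaining pairs with FANSe2 to Ensembl mouse RNA (7 mismatches allowed) and deposited raw read counts per transcript. The submitters' processing notes name CASAVA 1.8 and edgeR, and a human build that cannot apply to mouse transcripts. The Ensembl release and the use of strand in counting are not given in the sources used here. The deposited fold changes, p-values and FDR of the authors' comparison and 4 columns of log2 CPM were not used.

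Counts were summed per gene symbol without regard to case, and 8274 transcripts without a symbol, with 26.8% of the counts, stayed single features. All features had at least 10 counts, so none was filtered. GENCODE M21 annotates no other counted transcript over those of the 7 members. Groups were compared with edgeR 4.0.16 (R 4.3.3) by the quasi-likelihood test after TMM normalization, with Benjamini-Hochberg adjustment over 22919 features. CPM use TMM library sizes, counting intervals are exact Poisson intervals at 95%, and log2 CPM have a prior count of 2. The tests were tested on simulated data.

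Replicates differed by more than counting error (chi-square per degree of freedom 23.4 in APP and 4.44 in WT, over genes with at least 10 counts in the pair). The labels do not say whether samples were otherwise independent. The p-values draw on variability pooled over the features as well as on the spread between these mice. DESeq2 1.42.0, edgeR's exact, likelihood ratio and earlier quasi-likelihood tests, 3 other scalings (2 more were added after seeing the data), a filter of 10 counts in every library, transcripts, sums by identifier, no fold cut-off and leaving out each library were alternatives. Members and lists were chosen with earlier results of these data known. Genes named were the members, App, Prnp, partners, Srf, Creb1, Mapk3, list genes past both cut-offs and the 5 nearest patterns of Egr1 and Nr4a1. One gene under this rule is left unreported.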

Additional observations from a re-analysis of the deposited data

How the results depend on the processing

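No paired analysis was made, as the labels give no pairing of the mice. Over the 13 alternatives that keep all 4 libraries, Egr1 had log2 fold changes from -0.48 to -0.30 and an adjusted p under 0.05 in 12. The exception was the scaling to excitatory neuron markers, chosen after seeing the data as was that to Gapdh and Actb. Among the 12 is the setting without a fold change cut-off, which is the report's own fit. Its pass was therefore fixed in advance. Without a fold change cut-off Egr1 (-0.48) was the 1 member called, as were 5 delayed activity genes, and 43 genes were called lower in APP. With that neuron scaling Nr4a2 (0.05) and Nr4a3 (0.01) changed sign, and 0 Egr targets were called. The 1 other rapid gene called there was higher in APP and was none of Arc, Npas4 and Dusp1. In that setting 5 genes were called lower in APP.

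Genes called numbered 229 in the report's test, but 393 by the exact test (41 lower in APP) and 443 by the likelihood ratio test (54 lower). Both called 2 Egr targets and 2 Nr4a targets, and DESeq2 0 Egr targets, where list genes were counted in either direction. The 2 Nr4a targets were higher in APP. Of the 2 Egr targets, Arc was lower and the other was higher. Genes lower in APP, 18 in the report, numbered 10 with the filter of 10 counts in every library and 7 with sums by identifier, which test fewer features. The cause of these changes in number was not tested.

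With each library left out, genes called numbered 728 without APP.3, 555 without APP.4, 53 without WT.1 and 84 without WT.2, with 119, 134, 3 and 4 lower in APP. Members called ran from 0 to 3, other rapid genes from 0 to 6, delayed genes from 0 to 5, upstream kinases from 0 to 1, Nr4a partners from 0 to 1, Egr targets from 0 to 2 and Nr4a targets from 0 to 4. Log2 fold changes ran from -0.62 to -0.36 for Egr1, from -1.09 to -0.19 for Egr2, from -0.44 to -0.27 for Egr3, from -0.37 to -0.02 for Egr4, from -0.74 to -0.14 for Nr4a1, from -0.27 to 0.03 for Nr4a2 and from -0.45 to 0.04 for Nr4a3. The sign changed for Nr4a3 without APP.3 (0.04) and Nr4a2 without WT.2 (0.03). With 2 mice per group, the 95% intervals of Egr4, Nr4a2 and Nr4a3 include 0.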
